A study of Bos taurus with 4 samples.

Results

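The clones of the Arp2/3 actin nucleation complex were examined on arrays that compared PACAP-treated with control bovine chromaffin cells. A clone belonged to the set when the platform annotation gave it one of 9 mouse symbols, Actr2, Actr3, Arpc1a, Arpc1b, Arpc2, Arpc3, Arpc4, Arpc5 or Arpc5l, and every such clone was kept. The rule found 20 of the 35964 library clones, for 7 of the 9 genes, and no clone carried the symbol Actr2 or Arpc3. All 20 were among the 35112 clones bright enough to be tested. The set was chosen with its log2 ratios of PACAP over control known, those of Actr3 above all, so the ratios of the 20 clones are given as a description, with no test.

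Chromaffin cells, the catecholamine-secreting cells of the adrenal medulla, received 100 ng/ml PACAP (pituitary adenylate cyclase-activating polypeptide) in vitro for 6 h at 37 C, and were set against control chromaffin cells, for which no agent is named. PACAP RNA carried Cy5 and control RNA of the same repeat carried Cy3 on 1 array of mouse cDNA clones for each of 4 biological repeats, with no dye swap, so a dye preference of a clone is part of its ratio. The labels do not say whether the repeats came from separate animals. Bovine RNA on mouse clones can give weaker signal where the sequences differ, and in RNA of whole cultures fewer cells of a type and less RNA per cell cannot be told apart. The tissue label reads brain. Clones of the chromaffin genes Th, Ddc, Chga, Chgb and Gata3 were above background in both channels on 4 of 4 arrays. The other 2 of the 7 tested chromaffin markers, Scg2 and Slc18a1, were above it on 4 arrays in the PACAP channel. In the control channel they were above it on 2 (Scg2) and 1 (Slc18a1). The title of the Scg2 clone names another gene, patched homolog. Of all 35112 tested clones, 31838 were above background on 4 arrays in the PACAP channel and 11001 in the control channel. Detection of these genes therefore does not settle the tissue.

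The Arp2/3 complex binds the side of an actin filament and starts a new filament there as a branch. Its actin-related proteins Arp2 and Arp3 form the base of the new filament, the other subunits hold them and attach the complex to the older filament, and WASP and WAVE family proteins switch it on. In chromaffin cells a network of actin filaments lies beneath the plasma membrane and is remodelled when secretory granules are released. PACAP is a peptide transmitter of the nerves that reach these cells and acts on a receptor that raises cyclic AMP.

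Median signal above local background was 99.9 to 402.7 in the PACAP channel of the 4 arrays and 129.4 to 548.0 in the control channel. Signal exceeded 2 SD of the local background for 91.9 to 98.4% of library spots in the PACAP channel, and for 46.0 to 98.3% in the control channel. Repeat 4 stood apart: Pearson's r of the log2 ratios over 33267 clones, which are not independent replicates, was 0.22 to 0.37 among repeats 1 to 3 and no higher than 0 for repeat 4 with any other, down to -0.13. Each value that follows is the loess-normalised log2 of PACAP over control signal, with mean ± SD over 4 arrays (n = 4). A value of 1 is a doubling, and limma called 0 of 35112 clones (0%) at an adjusted p under 0.05, of which 0 were Arp2/3 clones. At an unadjusted p under 0.05 there were 1378 higher clones (3.92%) and 2269 lower clones (6.46%).

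Differences between the genes of the complex are described here and were not tested. Actr3, for which the set was chosen, had the highest ratios, with both clones above 0 on every array. Arpc2 and Arpc4 each had 1 clone above 0 on all 4 arrays beside others that were near or below 0. Arpc1a, Arpc1b and Arpc5l stayed within about their own spread of 0, and the Arpc5 means rested on repeat 3. Over the 20 clones the median of the mean ratios was 0.16, with 14 above 0 and 6 below, against a median of -0.01 over all tested clones, 48.6% of which lay above 0. Without the 2 Actr3 clones the median was 0.13, with 12 of 18 above 0.

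**Figure D1:**
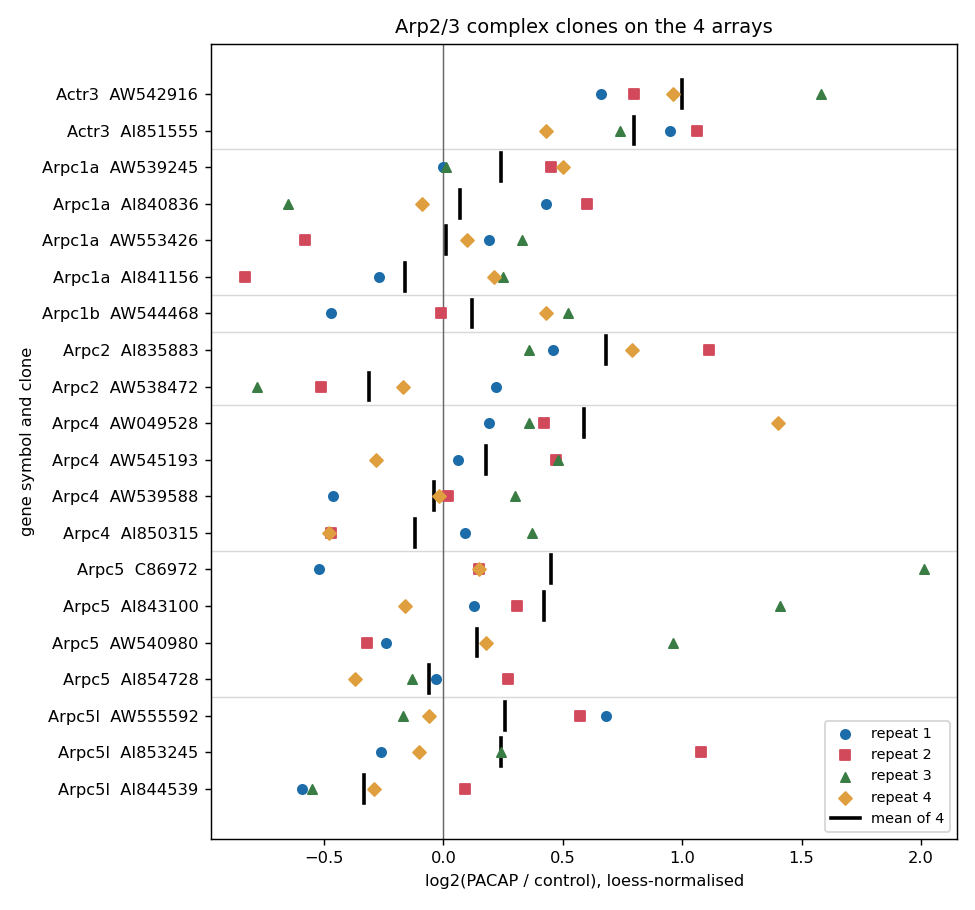
Log2(PACAP / control) of each of the 20 Arp2/3 complex clones (rows, grouped by gene symbol) on the 4 arrays, with a marker for each repeat and a bar at the mean. Both Actr3 clones and 1 clone each of Arpc2 and Arpc4 lie right of 0 on all arrays, and 3 of the 4 Arpc5 clones have repeat 3 far to the right of their other points.

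Actr3 encodes Arp3, 1 of the actin-related proteins at the base of the branch. Clone AW542916 had log2 ratios of 0.66, 0.80, 1.58 and 0.96 on repeats 1 to 4, and its mean was 1.00 ± 0.41, which is 2.00-fold. Clone AI851555 had 0.95, 1.06, 0.74 and 0.43, with a mean of 0.80 ± 0.28 (1.74-fold). All 8 values were above 0, and the repeat that stood highest differed between the clones, repeat 3 for AW542916 and repeat 2 for AI851555. Among all tested clones 0.82% had a higher mean than AW542916 and 2.45% a higher mean than AI851555. Averaged over both clones, Actr3 had 0.80, 0.93, 1.16 and 0.70 on repeats 1 to 4, or 0.90 ± 0.20.

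Beneath these ratios, the deposited signal of AW542916 was 2740.3, 3062.4, 1564.3 and 2545.0 in the PACAP channel of repeats 1 to 4, against 860.7, 504.2, 238.9 and 2923.6 in the control channel. On repeat 4 the PACAP signal was thus the lower one before normalisation, on an array where the median signal of library spots was 248.2 in the PACAP channel and 548.0 in the control channel. The control signal of this clone was 12.6, 2.8, 2.4 and 46.6 times the SD of its local background, so it passed the limit of 2 on all 4 arrays, though narrowly on repeats 2 and 3. Clone AI851555 was dimmer, with 367.8, 852.8, 324.2 and 591.1 in the PACAP channel and 156.3, 213.4, 148.1 and 1009.7 in the control channel. Its control signal stood at 2.2, 1.4, 2.0 and 26.5 background SD and exceeded the limit on 2 of 4 arrays, with repeat 3 just under it. The size of its ratio on repeats 1, 2 and 3 therefore rests on control spots near background. The same holds for AW542916 on repeats 2 and 3, where its highest ratio (repeat 3) lies. Both clones had full spots, of 102 to 127 pixels for AW542916 and 116 to 128 pixels for AI851555. They came from different libraries (NIA and BMAPI), lay in different print blocks, and carried the same older title in the scanner tables, RIKEN cDNA 1200003A09.

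**Figure D2:**
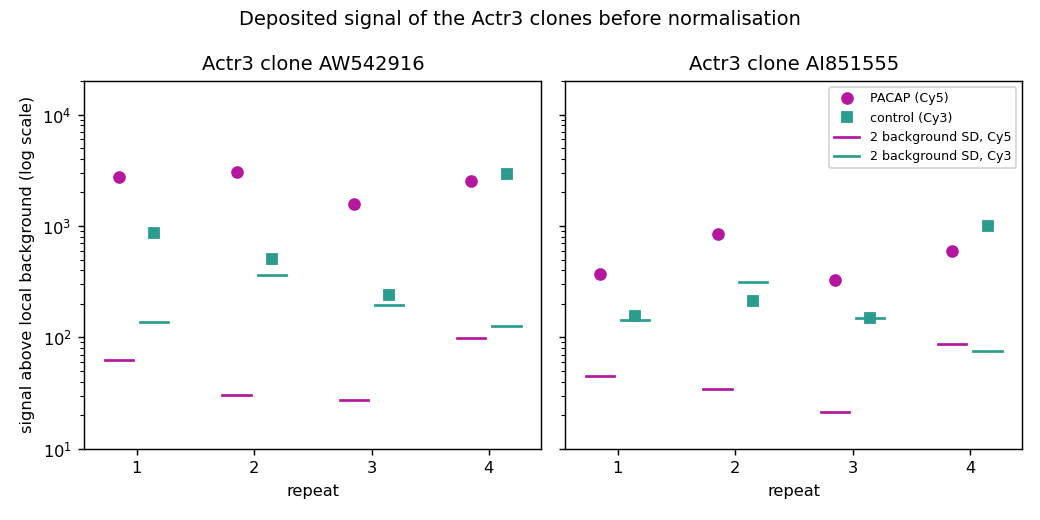
Deposited signal above local background (log axis) of the Actr3 clones AW542916 (left) and AI851555 (right) on each array, in the PACAP channel (circles) and the control channel (squares), with short lines at 2 SD of the local background of each channel. The PACAP signals lie well above their lines throughout, whereas the control signals of AI851555 lie at or under theirs on repeats 2 and 3.

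Of all clones with 4 values, 3367 of 33267 (10.1%) were above 0 on every array, and the Arp2/3 set held 4 of 20. None of the 20 was below 0 on every array, against 8.71% of all clones. Of 3246 genes with exactly 2 clones, 69 (2.13%) had both above 0 on all 4 arrays, and 9 (0.277%) also had both means at or above 0.80, the lower of the Actr3 means. Actr3 is 1 of those 9, and since it was chosen for this pattern nothing further is read from the count.

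Arpc2 encodes a core subunit that, with Arpc4, contacts the older filament, and its clones went opposite ways. AI835883 had log2 ratios of 0.46, 1.11, 0.36 and 0.79 on repeats 1 to 4, with a mean of 0.68 ± 0.34 (1.60-fold). AW538472 had 0.22, -0.51, -0.78 and -0.17, with a mean of -0.31 ± 0.43. The first was above 0 on 4 of 4 arrays and the second on 1 of 4, and the clones took opposite signs on repeats 2, 3 and 4. AI835883 was brighter than 98.4% of clones, with 10669.4, 5360.2, 2040.7 and 4510.4 in the PACAP channel and 3140.0, 617.0, 612.5 and 5727.8 in the control channel, with the control signal at 7.7 background SD or more. AW538472 had 499.3, 243.1, 155.0 and 181.3 in the PACAP channel and 297.2, 257.4, 227.8 and 443.7 in the control channel, also above the limit on all arrays. The scanner tables title both clones Bcl2-interacting killer-like, which is not the annotated gene.

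Arpc4 encodes the partner of Arpc2 in that core. AW049528 had log2 ratios of 0.19, 0.42, 0.36 and 1.40 on repeats 1 to 4, with a mean of 0.59 ± 0.55. Its highest value came from a spot of 37 pixels on repeat 4, against 109 to 120 pixels on the other arrays, and the mean was 0.28 when spots under 60 pixels were left out. AW545193 had a mean of 0.18 ± 0.37, AW539588 of -0.04 ± 0.31 and AI850315 of -0.12 ± 0.42. Each of these 3 clones had arrays on both sides of 0. AW545193 and AI850315 share the title RIKEN cDNA 5330419I20, and on repeat 2 they gave 0.47 and -0.47.

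Arpc1a and Arpc1b encode alternative forms of the WD-repeat subunit, 1 of the parts of the complex that activators contact. For Arpc1a, AW539245 had 0.24 ± 0.27, AI840836 0.07 ± 0.56, AW553426 0.01 ± 0.40 and AI841156 -0.16 ± 0.51. None kept its sign beyond its spread, and the mean over the 4 clones lay between -0.09 and 0.18 on the single arrays (0.04 ± 0.12). The title of AW539245 names mitochondrial malate dehydrogenase, whereas AI840836 and AW553426 are titled as subunit 1A of the complex. Those 2 clones had 0.60 and -0.58 on repeat 2, and -0.65 and 0.33 on repeat 3, and so took opposite signs on both. The 1 clone of Arpc1b, AW544468, had log2 ratios of -0.47, -0.01, 0.52 and 0.43 on repeats 1 to 4, or 0.12 ± 0.45, with control signal above the limit on 2 of 4 arrays.

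Arpc5 and Arpc5l encode alternative forms of the smallest subunit. The Arpc5 clone C86972 had log2 ratios of -0.52, 0.15, 2.01 and 0.15 on repeats 1 to 4 (0.45 ± 1.09). AI843100 had 0.13, 0.31, 1.41 and -0.16 (0.42 ± 0.69), and AW540980 had -0.24, -0.32, 0.96 and 0.18 (0.14 ± 0.58). In these 3 clones repeat 3 alone was high, and their control signal on that array was 0.9, 1.3 and 1.2 background SD, under the limit. The fourth, AI854728, had its control signal at 6.7 background SD on repeat 3 and a log2 ratio of -0.13 there, with -0.06 ± 0.26 over the arrays. Without repeat 3 the means were -0.07 for C86972, 0.09 for AI843100 and -0.13 for AW540980. The part of the dim control spots in the high values was not tested.

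Arpc5l had 3 clones, with 0.26 ± 0.43 for AW555592, 0.24 ± 0.60 for AI853245 and -0.33 ± 0.31 for AI844539. AW555592 was high on repeats 1 and 2, at 0.68 and 0.57, and near 0 on repeats 3 and 4, at -0.17 and -0.06. AI853245 was high on repeat 2 alone, at 1.08, and its spot on repeat 4 covered 27 pixels. AI844539 was below 0 on 3 of 4 arrays. Averaged over its clones, Arpc5l had -0.05, 0.58, -0.16 and -0.15 on repeats 1 to 4.

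In order of the mean over clones, the genes ran Actr3 (0.90 ± 0.20), Arpc5 (0.24 ± 0.56), Arpc2 (0.18 ± 0.26), Arpc4 (0.15 ± 0.17), Arpc1b (0.12 ± 0.45), Arpc5l (0.05 ± 0.35) and Arpc1a (0.04 ± 0.12). The ranges of mean ± SD overlap between every neighbouring pair in that order, Actr3 and Arpc5 included. Actr3 was well above Arpc5 on repeats 1, 2 and 4, at 0.80, 0.93 and 0.70 against -0.17, 0.10 and -0.05 for Arpc5. On repeat 3 the values were 1.16 for Actr3 and 1.06 for Arpc5.

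**Figure D3:**
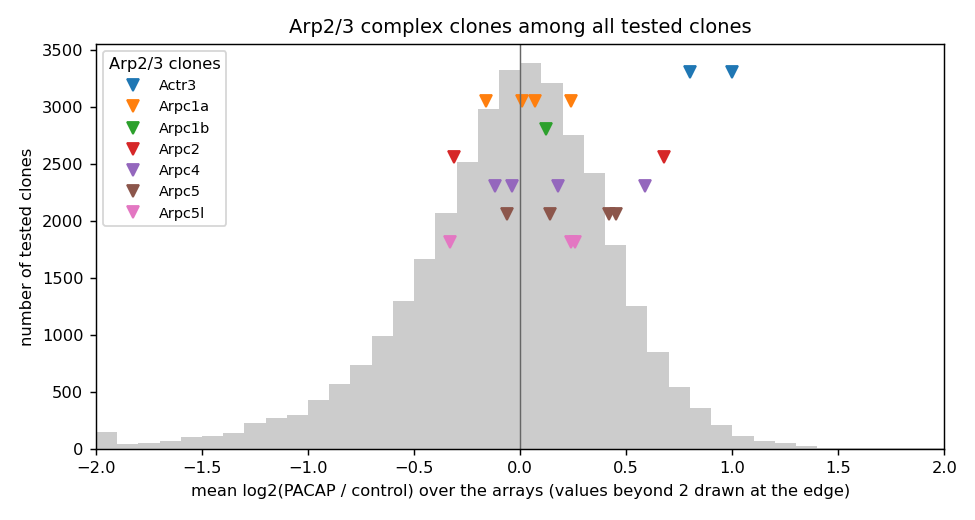
Mean log2(PACAP / control) of all 35112 tested clones (grey histogram, number of clones per bin, values beyond 2 drawn at the edge) with the Arp2/3 complex clones as triangles, a row for each gene. The Actr3 clones sit in the upper tail at 0.80 and 1.00, and most of the others lie between -0.33 and 0.45, within the bulk of the array, which has its 10th percentile at -0.66 and its 90th at 0.50.

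A further 2 clones are titled as subunit 3 of the complex in the scanner tables but fall outside the symbol rule. AI851740, which the annotation assigns to B3galt2, a galactosyltransferase, had log2 ratios of 0.43, 0.51, 0.25 and 0.13 on repeats 1 to 4, or 0.33 ± 0.17. AW546733, which has no symbol, had 0.51, 0.49, 1.32 and 0.51, or 0.71 ± 0.41. Both were above 0 on 4 of 4 arrays, with control signal above the limit on 2 and 3 of 4 arrays. Annotation and title thus disagree on whether they belong to Arpc3, and they were not counted among the 20.

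Array by array, the median over the 20 clones was 0.07, 0.29, 0.34 and 0.04 on repeats 1 to 4, with 11, 14, 15 and 10 clones above 0, whereas the median over all tested clones was 0 on each array after the loess. The median SD of the 20 clones over arrays was 0.43, against 0.55 for all tested clones. In the PACAP channel all 20 exceeded the background limit on 4 of 4 arrays. In the control channel 9 did so on 4 arrays, 7 on 3 and 4 on 2. The 9 clones with control signal throughout had a median ratio of 0.24, with 6 above 0, and the other 11 had 0.14, with 8 above 0. By library, the 10 NIA clones had a median of 0.16, with 8 above 0, and the 9 BMAPI clones 0.07, with 5 above 0. The dimmer 10 clones had a median of 0.25 and the brighter 10 of 0.08.

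How the leading clones depended on the processing is shown in the plot of settings. AW542916 ranged from 0.81 to 1.69 over 14 settings that used the scanner signals, the highest under median centring in place of the loess, and AI851555 ranged from 0.57 to 0.92 over the 13 of them that tested it. The Arpc2 clone AI835883 ranged from 0.53 to 1.56, but had -1.79 from the authors' deposited log2 ratios once centred, where the Actr3 clones had 2.22 and 2.44. Of the 20 clones, 8 were above 0 in every one of the 14 settings that tested them, and 11 took both signs. Arpc2 AW538472 alone was below 0 in each, but had 0.26 from the deposited log2 ratios centred. Those centred ratios are not among the 14 settings, and put 11 of the 20 clones above 0. Of the 8 clones, they also turned Arpc1a AW539245 (-1.69), Arpc4 AW049528 (-0.44) and Arpc5l AW555592 (-0.05). Arpc4 AW545193 (0.88) and Arpc5 AI843100 (0.51) stayed above 0 there, as did both Actr3 clones. Settings that changed only the filter on clones or the fit kept the same ratios, so a clone's mean over the 4 arrays could not move there. Without repeat 3 the median over the 20 clones was 0.03 and 10 were above 0. Without repeat 4 the Actr3 clones had 1.01 (AW542916) and 0.92 (AI851555), and 14 of the 20 were above 0.

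**Figure D4:**
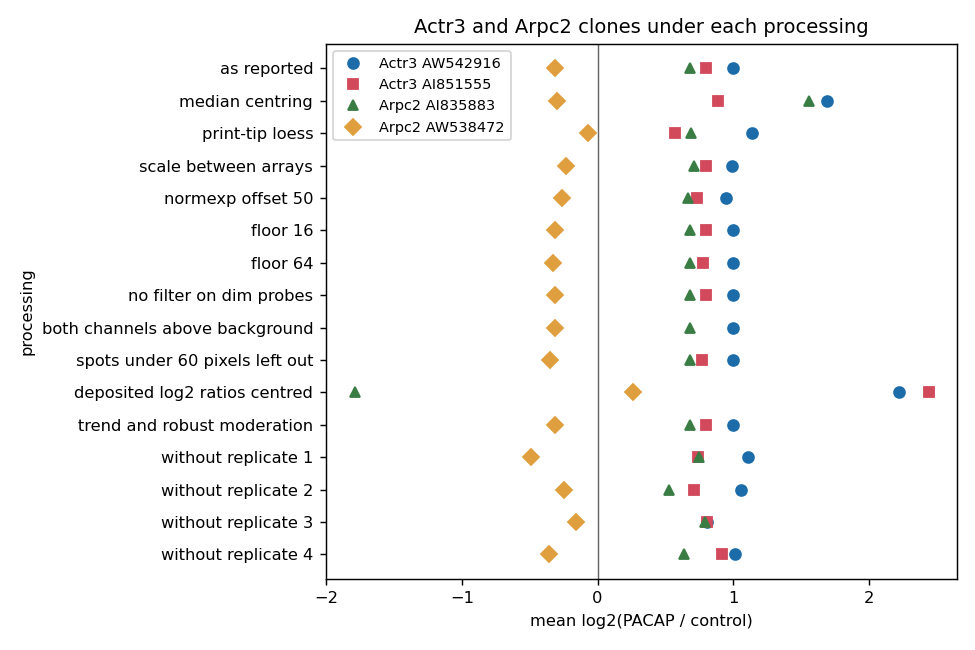
Mean log2(PACAP / control) of the clones of Actr3 and Arpc2 (horizontal axis) under the reported processing and 15 alternatives (rows); the deposited ratios before centring are left out. The Actr3 clones stay right of 0 in each row where they were tested, and the Arpc2 clone AI835883 falls left of 0 only with the deposited log2 ratios centred.

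The named clones whose 4 values were nearest to those of Actr3 AW542916 were sought among 21046 clones by the root mean square difference over the arrays. Nearest was AA408348 of Ivns1abp, a kelch-repeat protein, at a difference of 0.11, with 0.96 ± 0.35. Next came AI853798 of C1qtnf6, a secreted protein of the C1q and TNF related family, at 0.13, with 0.91 ± 0.45. After it came AU016249 of Lrrc9, a leucine-rich repeat protein, at 0.16, with 0.85 ± 0.37. The other Actr3 clone was at 0.53 and ranked 745th, so clones of many other genes lay nearer to AW542916 than the second clone of its own gene.

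Around the complex, 169 genes of actin biology in 8 lists were looked up. The array carried 128 of them, and 127 could be tested, each by its brightest clone. None passed an adjusted p under 0.05 in limma over all clones, while at an unadjusted p under 0.05 there were 5 higher and 3 lower, against 3.92% higher and 6.46% lower among all clones. Their median ratio was 0.10, with 75 above 0 and 52 below, where 48.6% of all clones lay above 0. That balance depends on the processing. Under median centring 96 were above 0 and 31 below (median 0.40). From the authors' deposited log2 ratios centred, 60 were above 0 and 67 below (median -0.09). Scaling between arrays left 75 above 0 and 52 below (median 0.08). Among 20 activators of the complex, 11 were above 0 and 9 below, with a median of 0.04, and 16 were above 0 under median centring (median 0.30). Wipf1, which binds and stabilises WASP proteins, had 0.86, 0.71, 2.39 and 0.01 on repeats 1 to 4, or 0.99 ± 1.00 (adjusted p = 0.455), and its 2 other clones had means below 0. Wasl, which encodes N-WASP, had -0.35 ± 0.28 (adjusted p = 0.589), below 0 on 4 of 4 arrays and with both other clones below 0 in the mean. It had 0.06 under median centring and 0.40 from the deposited ratios centred, so its sign turned. The activators that supply the signal to the complex thus held members on either side of 0.

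The 7 tested inhibitors and branch-disassembly genes had a median of 0.00, with 4 above 0 and 3 below. Gmfb, glia maturation factor beta, which takes branches apart, had 0.47 ± 1.16, with repeat 1 at -1.05 and repeats 2 and 3 at 1.28 and 1.46 (adjusted p = 0.671), and -0.30 from the deposited ratios centred. Pick1, which has been reported to bind and inhibit the complex, had 0.28 ± 0.65 (adjusted p = 0.727). The 6 other actin-related proteins had a median of 0.21, with 5 above 0, among them Actl6a, a chromatin remodelling subunit, at 0.63 ± 0.37 (adjusted p = 0.468; 1 of its 3 other clones had a mean above 0 and 2 below). Actr1a, the dynactin filament protein, had 0.41 ± 0.62 (adjusted p = 0.602).

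The 4 actins, the substrate of the complex, were below 0 in the mean, with a median of -0.15. Their medians on repeats 1 to 4 were -0.59, -0.56, -0.17 and 0.70, so repeat 4 went the other way. Without repeat 4 the median was -0.44. Under median centring it was 1.01 with all 4 above 0, so the direction of the actins depends on the normalisation. Actb, cytoplasmic beta actin, had -0.01 ± 0.64 (adjusted p = 0.990), with its 6 other clones below 0, and Acta2, smooth muscle actin, had -0.39 ± 0.57 (adjusted p = 0.604).

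Among 25 genes of monomer binding, severing and capping, 12 were above 0 and 13 below (median -0.01). Wdr1, which helps cofilin take filaments apart, had -0.59 ± 0.29, below 0 on 4 of 4 arrays (adjusted p = 0.470), with 1 other clone above 0 and 1 below. Under median centring Wdr1 had 0.11, the opposite sign. Cap2, which binds actin monomers, had -1.84 ± 1.58 (adjusted p = 0.454), and Limk2, a kinase that inactivates cofilin, had -1.51 ± 1.82 (adjusted p = 0.461). Their spots were small, with a median area of 22 pixels for Cap2 and 31 for Limk2. Of 16 formins, other nucleators of unbranched filaments and elongation factors, 11 were above 0 (median 0.14). Where both channels had to exceed background, 5 of 9 were above 0 (median 0.01). Vasp, a filament elongation factor, had 0.58 ± 0.45 on 4 of 4 arrays above 0 (adjusted p = 0.482).

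**Figure D5:**
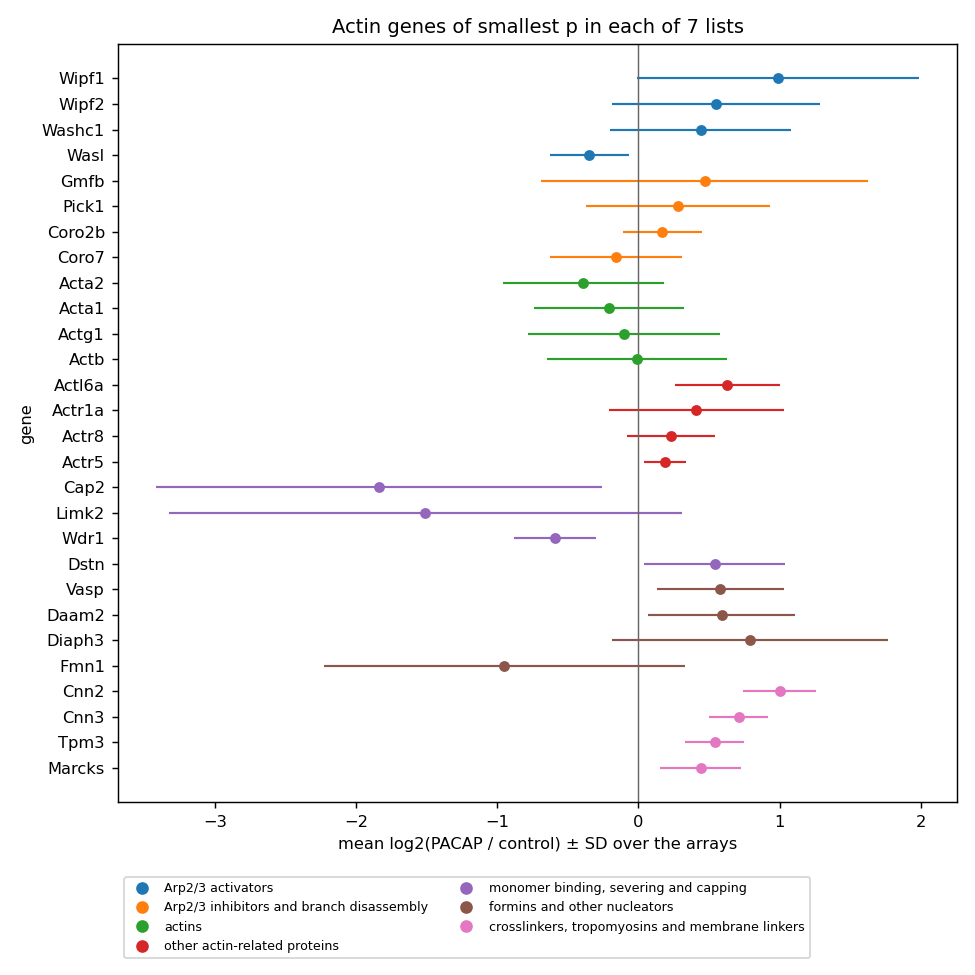
Mean log2(PACAP / control) ± SD over the arrays (horizontal axis) of the 4 genes of smallest p in each of 7 actin lists (rows, coloured by list); n = 4 arrays. None passed the adjusted threshold, and the bars of Wipf1, Gmfb, Cap2 and Limk2 are far wider than those of Cnn2, Cnn3 and Tpm3.

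Markers of cell types that an adrenal culture could hold gave 0 called genes among the 46 tested in 6 lists. The median ratio was -0.14 for 7 chromaffin genes, -0.26 for 7 adrenal cortex genes, -0.15 for 8 fibroblast genes, 0.07 for 8 endothelial genes, 0.03 for 10 leukocyte genes and 0.11 for 6 Schwann and sustentacular genes. The chromaffin genes differed widely, from -0.50 ± 0.14 for Chga to 1.84 ± 0.84 for Scg2, with 3 above 0 and 4 below. The summed signal of the leukocyte genes, cells in which Arp2/3 subunits are abundant, was 1892 to 8242 in the PACAP channel and 1417 to 11642 in the control channel over the 4 arrays. In the PACAP channel the fibroblast genes summed to 20500 to 65044 and the chromaffin genes to 17486 to 57946. Sums there were 987 to 3433 for adrenal cortex, 843 to 3436 for endothelial and 1068 to 4380 for Schwann and sustentacular genes. The sums are over different mouse clones, where bovine RNA can give weaker signal, so they do not measure shares of cell types. The part of other cell types in the Arp2/3 ratios was not tested.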

How the data were processed

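Each array was scanned in 2 colours, and the deposited files give linear signal intensity, local background, its spread and a spot area in pixels (a score of spot size), per the file headers. No source used here names the image analysis software. Deposited mean intensities were already background-subtracted, as judged from the values: total intensity over mean plus background gave 114.3 to 122.7 pixels per Cy3 spot. The authors' deposited ratio of each spot is Cy5 over Cy3 divided by 1 calibration factor per array (0.432 to 1.97). The authors' deposited series table holds log2 ratios that match a second background subtraction, uncentred, with medians of 4.67, 5.51, 4.25 and -0.38 on repeats 1 to 4; they served as an alternative only.

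With a floor of 1 on the means, the log2 of Cy5 over Cy3 was normalised by global loess within arrays in limma 3.58.1 (R 4.3.3; Python 3.11.15), with weight 0 for blanks, other plates and spots of no area. A clone needed a signal over 2 background SD, in either channel, on 3 or more of the 4 arrays; spots of 1 clone were averaged. The mean was tested against 0 with lmFit and eBayes (2-sided, Benjamini-Hochberg over all clones). The procedure was also run on simulated data with independent arrays, and that outcome is not reported here. Symbols came from the platform annotation, joined by plate position where the median difference was under 0.1 log2 (35695 of 35873 entries, and 2302 of 2302 shared identifiers matched); 22477 spots had 1 symbol, 1111 several and 12508 none, and none was named from several. Named were all Arp2/3 clones, up to 4 genes of smallest p per actin list and the 3 nearest clones; the text gives some of the 32 list genes, and 1 of the 8 lists, which enters the totals, is not reported here. The members and lists were chosen with earlier results of these data known. Pairing of PACAP and control RNA is within each ratio. The number of arrays limits the precision. In all, 16 alternatives were tried.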

Additional observations from a re-analysis of the deposited data

Results flagged for a closer look

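Acta2, smooth muscle actin (clone AI838959), had a log2 ratio of 0.46 on repeat 4, far from the -0.74 to -0.59 of the other arrays. Its mean without repeat 4 was -0.68. Of 51 groups of 4 array values examined for a stray array, this was the only one past the limit. Chance passes that limit in about 1 of 20 groups, so 1 of 51 is no more than chance would give. No Arp2/3 clone passed the limit. The actins Acta1, Actg1 and Actb were likewise above 0 on repeat 4 alone, at 0.53, 0.86 and 0.92.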

How the results depend on the processing

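Under 16 alternatives, no Arp2/3 clone was called, and the number of called clones stayed at 0 except for 587, all lower, from the deposited log2 ratios centred and 3 (2 higher and 1 lower) with trend and robust moderation. Of the actin list genes 1, Rnd3, was called from the deposited ratios centred (-5.75, adjusted p = 0.00152, against 0.314 to 0.871 in the other alternatives that tested it). Clones at an unadjusted p under 0.05 numbered 3647 as reported, 6099 under median centring, 14317 from the deposited ratios and 1835 to 5150 without 1 array. Actr3 AW542916 had 1.69 under median centring, 5.74 from the deposited ratios and 2.22 from those centred, and 0.81 to 1.11 without 1 array. Actr3 AI851555 had 5.96 from the deposited ratios and 2.44 from those centred, 0.71 to 0.92 without 1 array, and no value where both channels had to exceed background. The members' median was 3.67 from the deposited ratios, where the median of all clones was 3.26, and 0.03 to 0.25 without 1 array, with 10 to 14 clones above 0. Some of the alternatives kept the same ratios, so no clone mean could move there. Of 285 values of the other Arp2/3 clones under alternatives, 37 moved by over 1 SD, 30 of them from the deposited ratios. The cause was not tested. The reported analysis is paired: PACAP and control RNA of a repeat share 1 array and enter as its ratio, so a further block could not be fitted.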

Other observations

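Among the actin lists, genes of crosslinkers, tropomyosins and membrane linkers lay mostly above 0: 21 of 23 tested, with a median log2 ratio of 0.24, against 48.6% of all tested clones and a median of -0.01. On repeats 1 to 4, 14, 14, 19 and 15 of the 23 were above 0, where about 50% of all clones were. None passed an adjusted p under 0.05 in limma, and 2 had an unadjusted p under 0.05. Cnn2, a calponin that binds actin filaments, had 0.66, 1.24, 1.16 and 0.95 on repeats 1 to 4, or 1.00 ± 0.26 (adjusted p = 0.454), but its other clone was below 0. Cnn3, another calponin, had 0.50, 0.98, 0.61 and 0.76, or 0.71 ± 0.21 (adjusted p = 0.454), with both other clones above 0. Tpm3, a tropomyosin, had 0.54 ± 0.21 (adjusted p = 0.480), with 5 other clones above 0, and Marcks, a membrane-bound actin linker, had 0.44 ± 0.29 (adjusted p = 0.529), with 3 others above 0. Vcl, vinculin, had -0.30 ± 0.35 and Tln2, a talin, -0.19 ± 0.77. From the authors' deposited log2 ratios centred on each array, only 9 of the 23 were above 0 and 14 below, and Cnn3 had -1.86 and Tpm3 -1.98. The list was chosen with earlier results of these data known. It is described here because, of the 8 lists, it held the most genes of 1 sign in these same values. The count is therefore a description and not a test.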
